A study of Mus musculus with 11 samples.

Results

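PU.1 occupancy was measured at the miRNA genes of the mouse genome in 2 kinds of immature erythroid cells. The regions described here are the 5′ ends of all miRNA genes in the GENCODE annotation of mm9, with 2 kb on each side. Regions of genes whose 5′ end lies within 2 kb of a protein-coding transcription start site (TSS) were left out. This leaves 1378 of 1577 miRNA regions at 1112 separate loci. A window in a kept region can still lie within 2 kb of a coding TSS. Of the 1378, 471 carry a miRNA name (Mir or mmu-mir) and 907 are listed under the name of a genomic clone. MEL cells are a murine erythroleukemia line, here clone # 4 of cells that stably express a GATA-1/ER fusion. ES-EP are non-leukemic erythroid progenitors derived from embryonic stem cells and grown with erythropoietin (Epo), SCF, dexamethasone and IGF-1. PU.1 ChIP (antibody T-21) was done on 2 chromatin preparations (A and B) per cell type, each sequenced as 2 libraries, with input DNA from 1 MEL and 2 ES-EP libraries. All MEL libraries come from a single clone, and no RNA data are used here, so that neither the identity of the cells nor the transcription of a miRNA can be checked in these data.

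PU.1, encoded by Sfpi1, is an Ets family transcription factor that binds purine-rich DNA with a GGAA core and is best known for directing myeloid and B cell development. A miRNA is cut from a hairpin within a longer primary transcript by Drosha and Dgcr8, exported by Xpo5, cut again by Dicer1 and loaded onto an Argonaute protein, where its seed, bases 2 to 8, pairs with target mRNAs. Many hairpins lie in introns of protein-coding genes and are transcribed from the host promoter, and the promoter of an intergenic primary transcript can lie kilobases upstream of the hairpin. The region around a hairpin's 5′ end is therefore not always its promoter. Several hematopoietic miRNAs, among them miR-223, miR-142, miR-155 and the miR-144 and miR-451 pair, have been studied as targets of lineage factors.

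The libraries have between 2054667 and 4840424 placed reads, and the preparations between 5697937 and 7095855. At this depth a window of 500 bp holds on average 2.39 ChIP reads in MEL cells, against 2.52 in ES-EP, and 0.806 and 1.41 input reads, so that intervals are wide at most hairpins. Intervals and Poisson p-values given here cover counting error only, on reads summed over both preparations. The window of each region was chosen for its ChIP reads. The adjusted Poisson p-values allow for the number of windows tried, but the folds and their intervals do not, so that folds tend to be high. The limma test alone uses the spread between the 2 preparations of a cell type, which come from the same culture type. A lower level of binding and a smaller share of bound cells cannot be told apart. In the Sfpi1 gene region itself, MEL cells had 23 (A) and 96 (B) reads where 11.9 were expected for their sum, while ES-EP had 33 and 38 where 8.04 were expected. Over all gene regions, the median-ratio size of MEL preparation A was 0.686 of the size given by its total reads, against 1.09 in MEL B, 1.26 in ES-EP A and 0.937 for preparation B of ES-EP.

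The mature sequences of the miRNAs that the results turn on are printed here, with the seed in capitals (RefSeq, GRCm38.p6). Of the 471 members with a miRNA name, 337 were matched by symbol. The hairpins Mir23a, Mir27a and Mir24-2 share a window and are the hematopoietic miRNAs called occupied among the members.
mmu-miR-23a-3p: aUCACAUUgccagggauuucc
mmu-miR-27a-3p: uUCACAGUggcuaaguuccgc
mmu-miR-24-3p: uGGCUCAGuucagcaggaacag
The 6 hairpins of the Mir17 cluster had the most reads among the hematopoietic members in MEL cells. They fall into 4 seeds, with miR-17 and miR-20a sharing 1 and miR-19a and miR-19b another.
mmu-miR-17-5p: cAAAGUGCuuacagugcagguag
mmu-miR-20a-5p: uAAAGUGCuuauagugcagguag
mmu-miR-18a-5p: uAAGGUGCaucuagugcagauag
mmu-miR-19a-3p: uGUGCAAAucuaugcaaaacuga
mmu-miR-19b-3p: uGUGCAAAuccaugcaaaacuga
mmu-miR-92a-3p: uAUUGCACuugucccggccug
The next set is the hematopoietic miRNAs for which values are given whatever their occupancy. Each has a seed of its own.
mmu-miR-223-3p: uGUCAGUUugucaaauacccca
mmu-miR-142a-3p: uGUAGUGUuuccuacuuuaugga
mmu-miR-146a-5p: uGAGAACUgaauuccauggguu
mmu-miR-155-5p: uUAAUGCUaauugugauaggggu
mmu-miR-144-3p: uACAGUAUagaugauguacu
mmu-miR-451a: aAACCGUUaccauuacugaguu
The last set, miR-140 and miR-203, comes from named hairpins outside the hematopoietic lists whose regions held many PU.1 reads.
mmu-miR-140-3p: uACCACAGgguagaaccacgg
mmu-miR-203-3p: gUGAAAUGuuuaggaccacuag

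Of the loci occupied in both cell types, 5 are shown as examples by the 200 bp with the most ChIP reads in the window (NCBIM37, which is mm9). Capitals mark the words GAGGAA and GAGGAAGT, or their reverse complements.
AL671117.1, chrX:13232297-13232496, plus strand: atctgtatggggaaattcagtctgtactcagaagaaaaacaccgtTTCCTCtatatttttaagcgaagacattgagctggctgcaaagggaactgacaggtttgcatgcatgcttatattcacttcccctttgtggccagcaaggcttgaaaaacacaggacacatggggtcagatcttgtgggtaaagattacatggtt
AC171917.1, chr8:75206823-75207022, plus strand: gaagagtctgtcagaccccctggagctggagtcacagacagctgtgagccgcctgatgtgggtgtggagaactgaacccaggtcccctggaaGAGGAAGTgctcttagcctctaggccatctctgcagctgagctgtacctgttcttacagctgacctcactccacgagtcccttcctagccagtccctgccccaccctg
AC116729.1, chr3:51543035-51543234, plus strand: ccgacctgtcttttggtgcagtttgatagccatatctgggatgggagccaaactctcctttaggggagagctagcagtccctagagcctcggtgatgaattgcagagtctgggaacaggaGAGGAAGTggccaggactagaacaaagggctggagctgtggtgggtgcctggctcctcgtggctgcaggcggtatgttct
AC127258.1, chr8:111461150-111461349, plus strand: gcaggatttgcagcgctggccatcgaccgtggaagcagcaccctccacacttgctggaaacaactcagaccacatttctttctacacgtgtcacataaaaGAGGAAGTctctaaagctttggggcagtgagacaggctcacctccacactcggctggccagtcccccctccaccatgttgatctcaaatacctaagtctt
Mir124a-3, chr2:180629106-180629305, plus strand: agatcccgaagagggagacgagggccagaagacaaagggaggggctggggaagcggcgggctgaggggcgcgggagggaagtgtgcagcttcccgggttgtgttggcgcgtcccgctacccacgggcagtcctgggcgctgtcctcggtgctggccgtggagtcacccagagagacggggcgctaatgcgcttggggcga
AC171917.1, AC116729.1 and AC127258.1 hold GAGGAAGT, AL671117.1 has the shorter word alone, and Mir124a-3 has neither. How often these words occur at other members is given after the values.

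PU.1 occupied few miRNA regions away from protein-coding promoters. A region was called occupied when the ChIP reads in its best 500 bp window exceeded the number expected from the depth-scaled input (one-sided Poisson test, adjusted p below 0.05) and each preparation alone had at least 2 times its expected reads. By this rule 59 of the 1378 members (4.28%, 53 loci) were occupied in MEL cells and 27 (1.96%, 26 loci) were in ES-EP, of which 10 (0.726%, 9 loci) were occupied in both. Tiles of 4 kb whose middle lies over 2 kb from a coding TSS number 627137. The tiles were held to the same fold limits, but their Poisson p had no adjustment of its own. It was cut at the largest p, corrected for the windows tried, that passed among the gene regions (0.0188 in MEL cells, 0.0102 in ES-EP). By this, 2.51% of tiles passed in MEL cells, 1.84% passed in ES-EP, and 0.753% passed in both. The ES-EP share and the share in both cell types were thus near this background. The MEL share was above it with these settings, but an exact binomial test against the input left 11 members in MEL cells and 5 in ES-EP (4 of them shared), and the tiles were not called again with that test. Over the whole table of miRNA and protein-coding gene regions the shares were 28.0%, 11.3% and 7.04%. Of the 199 miRNA regions left out for a nearby coding TSS, 31.2% were occupied in MEL cells compared with 18.6% in ES-EP, and of 22367 coding regions 29.4% and 11.9%. Median ChIP reads in the best window were 15 in MEL cells and 16 in ES-EP for coding regions, and 17 and 20 for the left-out miRNA regions. Median input reads there, before depth scaling, were 2 and 5 for coding regions, and 2 and 6 for the left-out ones. The part of the input in the higher MEL shares was not tested. The median fold over expected reads was 1.26 in MEL cells, with 1.19 in ES-EP for members, and 1.18 and 1.12 for tiles.

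**Figure D1:**
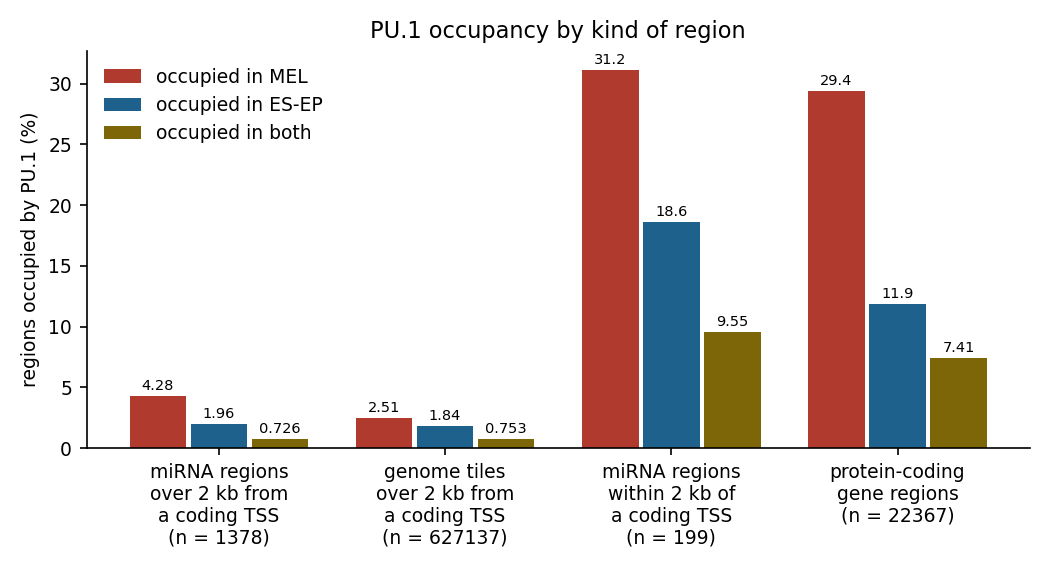
Share of regions occupied by PU.1 (y axis, percent) for 4 kinds of region of 4 kb (x axis, with the number of regions), with bars for MEL cells, ES-EP and both. The members (4.28%, 1.96% and 0.726%) sit beside the genome tiles and far below the protein-coding gene regions.

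The shares were also read by where a member lies. In MEL cells 15 of 455 members inside a coding gene on the same strand were occupied (3.30%), 11 of 171 on the opposite strand (6.43%) and 33 of 752 in no coding gene (4.39%). In ES-EP the shares were 2.20%, 2.34% and 1.73%. Of the 471 members with a miRNA name 20 were occupied in MEL cells (4.25%) while 7 were in ES-EP (1.49%), and of the 907 under clone names 39 and 20 were (4.30% and 2.21%). These differences were not tested. The count depended on the preparations: it fell from 59 to 28 in MEL cells when preparation B was left out, and from 27 to 10 in ES-EP when preparation A was left out. In MEL cells 17 further members passed the Poisson test but stayed under 2-fold in preparation A alone, and in ES-EP 8 stayed under 2-fold in preparation B alone.

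The occupied windows held between 11 and 957 reads in MEL cells (median 21, median fold 4.25) and between 11 and 99 in ES-EP (median 23, median fold 4.37). In 14 of the 59 windows occupied in MEL cells the input of MEL cells or ES-EP was over 5 times its genome mean. The extreme case was AC113316.1, with 312 reads in preparation A of MEL cells and 645 in B, 83 reads in the MEL input and 890 in the ES-EP input, and a fold of 1.03 in ES-EP. Without such windows 45 members were occupied in MEL cells, against 25 in ES-EP. Of the 59 windows 30 lay upstream of the hairpin's 5′ end and 5 at the very edge of the region, and of the 27 in ES-EP 13 lay upstream and 5 at the edge.

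The region of AL671117.1 on chromosome X, in an intron of Cask on the strand opposite to it, had the highest fold in both cell types together. Its window (chrX:13232007-13232506) held 39 reads in MEL preparation A, 42 in B, 53 in ES-EP preparation A and 36 in B, with 0 reads in the MEL input and 3 in the ES-EP inputs. This was 18.2-fold over expected in MEL cells (95% interval 14.5 to 22.6, adjusted p = 2.6e-67) and 16.6-fold in ES-EP (13.3 to 20.4, adjusted p = 8.3e-71). The reads were spread over all libraries, from 11 in MEL A1 to 29 in MEL B2 and from 10 in ES-EP B1 to 40 in ES-EP A2. The window is at the 3′ edge of the region, centred 1750 bp downstream of the 5′ end, and 6232 bp from the nearest coding TSS, that of Gpr82.

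AC127258.1, in an intron of Zfhx3, a gene for a zinc finger and homeodomain protein, had the largest fold in MEL cells. It had 38 and 58 reads in MEL cells with 1 in the input, a fold of 21.6 (17.5 to 26.4), and 23 and 16 in ES-EP with 4 in the inputs, a fold of 5.46 (3.88 to 7.46). Scaled for depth, both MEL preparations were above both ES-EP preparations, but the difference did not pass the limma test (log2 MEL over ES-EP 1.34, SE 0.72, adjusted p = 0.668). Of the 76 members occupied in either cell type, 52 had no overlap between the preparations of the cell types, in 1 direction or the other. The share over all members was not counted. Its window is centred 500 bp downstream of the 5′ end. The Zfhx3 TSS region, 222716 bp away, was at 3.94-fold in MEL cells but under 2-fold in preparation A, and at 1.27-fold in ES-EP, and was not occupied in either.

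Mir1965 and the adjacent AC164075.1, which lie in no gene, share a site. The Mir1965 window held 36 and 45 reads in MEL cells with 1 in the input, and 49 and 50 in ES-EP with 4 in the inputs. The folds were 7.81 (6.20 to 9.70) and 13.9 (11.3 to 16.9). The window lies at the upstream edge of the region, centred at -1750 bp, so that reads beyond the edge were not counted. AC171917.1, in an intron of Nwd1, had 20 and 22 reads in MEL cells, next to 34 and 21 in ES-EP, with folds of 7.08 and 7.70. Its window is centred 1373 bp from a coding TSS of Nwd1, within the 2 kb kept clear around the 5′ end of the miRNA gene. AC116729.1, in an intron of the Notch coactivator gene Maml3, had 28 and 35 reads in MEL cells, next to 22 and 6 in ES-EP, with folds of 7.08 and 7.84.

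Mir140, a miRNA known from cartilage, lies in an intron of the ubiquitin ligase gene Wwp2 and was the hairpin occupied in both cell types with a well-studied mature product besides Mir124a-3. Its window (chr8:110076144-110076643), 1250 bp downstream of the 5′ end, held 19 and 27 reads in MEL cells with 1 in the input and 42 and 28 in ES-EP with 5 in the inputs. The folds were 3.10 (2.27 to 4.14) and 7.84 (6.11 to 9.90). The region at the annotated 5′ end of the host gene Wwp2 was occupied as well. It had 34 and 72 reads in MEL cells, 5.96-fold, and 289 and 114 in ES-EP, 6.44-fold. A nearer Wwp2 start, 6178 bp from the hairpin, was not read as a host region. Mir124a-3, a copy of the neural miR-124, had 5 and 8 reads in MEL cells with 0 in the input and 16 and 19 in ES-EP with 4 in the inputs. Its folds were 4.87 (2.59 to 8.33) and 4.35 (3.03 to 6.05), and the printed stretch has a GC content of 69%. The ES-EP fold fell to 0.903 with a window of 1000 bp and to 0.567 when the window was chosen on preparations B and the reads of A were counted. AC139317.1, in an intron of Racgap1, had folds of 3.82 and 3.36, with its ES-EP call kept in 9 of 23 alternative settings and its 10 reads of MEL preparation B all from library B2, and AC120002.1, over an exon of Akap5 on the opposite strand, had 3.10 and 2.80.

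**Figure D2:**
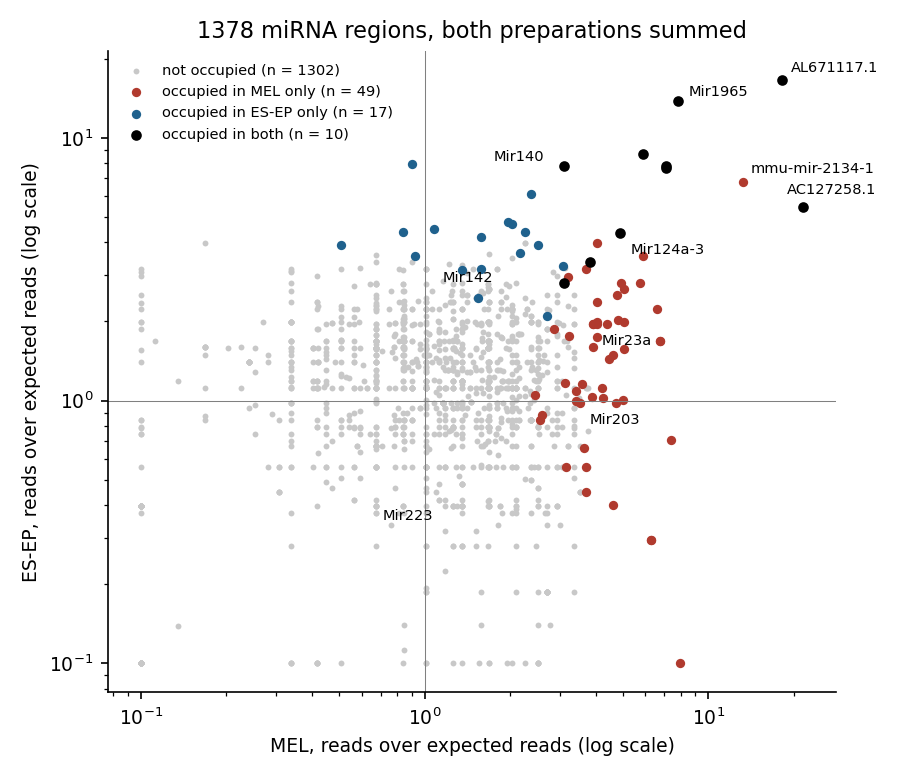
Reads over expected reads in MEL cells (x axis) against ES-EP (y axis), both on log scales and for both preparations together, for the 1378 members, with values under 0.1 drawn at 0.1. The 10 members occupied in both cell types (black) run from 2.80 to 16.6 in ES-EP, while most of the 1302 members that were not occupied (grey) lie around 1.

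Outside the rule for named genes, and chosen after their values were seen, the other hairpins with a miRNA name that were occupied in MEL cells alone are given here. Mir203 is a miRNA of stratified epithelium. Its window, 150 bp upstream of the hairpin, held 66 and 80 reads in MEL cells with 14 in the input, 3.52-fold (2.97 to 4.14, adjusted p = 3.1e-33), and 16 and 12 in ES-EP with 16 in the inputs, 0.979-fold. Mir203 was occupied in MEL cells under 23 of 23 alternative settings of the calling, but its input is over 5 times the genome mean, so that the count without such windows leaves it out. In the imprinted gene Rian on chromosome 12, Mir370 had 10 and 5 reads in MEL cells, next to 1 and 0 in ES-EP, and Mir1188 and Mir341, whose windows overlap, had 3 and 12 and 3 and 11 in MEL cells against 3 and 4 in ES-EP. The preparations differed at these hairpins, and for Mir370 9 of the 15 reads came from library A2. With MEL preparation A left out, also from the choice of window, the MEL fold of Mir370 was 0.306, against 9.32 without preparation B.

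Mir137, known from neurons, had 8 and 12 reads in MEL cells with 0 in the input, 6.75-fold, against 1.68-fold in ES-EP. With the window chosen on preparations B and the reads of A counted, its MEL fold was 0.751. Mir218-2, in an intron of Slit3, had 4 and 7 reads, 4.60-fold, against 0.400-fold in ES-EP, where the inputs held 7 reads. The Slit3 TSS region was occupied in MEL cells alone, with 4 and 8 reads. Mir375, known from pancreatic islets, had 8 and 9 reads, 3.58-fold, against 1.16-fold in ES-EP, where the inputs held 15. Its 9 reads of MEL preparation B all came from library B2, and its MEL call was kept in 15 of 23 alternative settings. Mir483 in Igf2, Mir672 in C77370, Mir709 in Rfx1, Mir760 and mmu-mir-1194 had folds between 3.15 and 5.02 in MEL cells and between 0.560 and 1.98 in ES-EP. Mir709 had more reads in ES-EP (22 and 22) than in MEL cells (9 and 13), with 14 in the ES-EP inputs, and mmu-mir-1194 was occupied under 11 of 23 alternative settings. At mmu-mir-689-2 the reads in ES-EP (90 and 102) were more than in MEL cells (36 and 61), but the ES-EP inputs held 163 reads, so that the fold was 3.64 in MEL cells compared with 0.659 in ES-EP.

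The reads at mmu-mir-2134-1 came mostly from 3 libraries. The region had 30 reads in MEL A2 and 58 in MEL B2 but 1 each in A1 and B1, and in ES-EP 62 in A2 against 3, 3 and 5 in A1, B1 and B2. The fold in MEL cells was 13.2 with all libraries, 1.79 with the libraries numbered 1 and 6.28 when repeated positions counted as 1. In ES-EP alone, 4 hairpins with a miRNA name were occupied. Mir129-1 had 12 and 9 reads, 4.70-fold against 2.02-fold in MEL cells. Mir136, over an exon of the imprinted gene Rtl1 and on the opposite strand, had 6 and 5 reads, 4.37-fold against 2.25-fold. Its 5 reads of ES-EP preparation B all came from library B2, and its ES-EP call was kept in 13 of 23 alternative settings. Mir466f-4 had 7 and 7 reads, 3.92-fold against 0.506-fold, and Mir1966 in Fam65a had 17 and 27, 2.46-fold against 1.54-fold.

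Few regions of hematopoietic miRNAs were occupied. Of 88 miRNA symbols in 3 lists, 78 were found in the annotation, 12 were within 2 kb of a coding TSS and 66 were members, at 42 loci. In MEL cells 3 of the 66 were occupied (4.55%), all at 1 locus, and in ES-EP 0, next to 4.28% and 1.96% of all members. The median fold was 1.15 in MEL cells, with 1.52 in ES-EP. Among 24 members of the myeloid and lymphoid list 3 were occupied in MEL cells, and among 17 of the erythroid and megakaryocytic list and 25 of the stem cell and leukaemia list 0 were. The Poisson test alone was passed by 9 further members in MEL cells, all under 2-fold in preparation A, and by 4 in ES-EP, all under 2-fold in preparation B.

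The occupied locus was the Mir23a cluster, whose miRNAs are expressed in myeloid cells and include miR-24, an inhibitor of erythroid differentiation. Its window (chr8:86731717-86732216 for Mir23a) is intergenic and centred 450 bp upstream of Mir23a. It held 6 reads in MEL preparation A and 15 in B against 1 in the input, with 2 and 4 reads in libraries A1 and A2 and 5 and 10 in B1 and B2. The fold was 3.94 (2.44 to 6.02, adjusted p = 6.3e-05). In ES-EP the window held 5 and 6 reads against 3 in the inputs, 1.95-fold (0.976 to 3.50). Scaled for depth, both MEL preparations were above both ES-EP preparations, yet the difference did not pass the limma test (log2 0.83, SE 0.66, adjusted p = 0.739). Preparations did not overlap between the cell types at 52 of the 76 members occupied in either. The cluster was occupied in MEL cells under 16 of 23 alternative settings.

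The Mir17 cluster, Mir193b and Mir210 are named here after their values were seen. The Mir17 cluster, which encodes miRNAs that promote proliferation, had more reads but missed the rule. At Mir17 the window (chr14:115441043-115441542, centred at -1600 bp) held 37 and 136 reads in MEL cells with 20 in the input. Preparation B was at 4.16-fold and preparation A at 1.39-fold, below the 2-fold limit, although the Poisson test on both gave an adjusted p of 5.6e-30. In ES-EP the same window held 30 and 18 reads with 15 in the inputs, 2.38-fold and 1.27-fold. At Mir19b-1, the window 450 bp upstream of the hairpin held 29 and 49 reads in MEL cells with 13 in the input, 2.02-fold, next to 7 and 11 in ES-EP with 11 in the inputs, 0.916-fold. Mir193b, with 7 and 24 reads in MEL cells (1.75-fold and 4.90-fold), and Mir210, a miRNA induced by hypoxia, with 2 and 22 (0.626-fold and 5.61-fold), were likewise high in MEL preparation B alone.

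At the hairpins best known from blood cells the counts were small. Mir223, a granulocyte miRNA on chromosome X, had 4 and 3 reads in MEL cells with 2 in the input, 1.18-fold, and 1 and 2 reads in ES-EP with 4 in the inputs, 0.420-fold (0.0866 to 1.23). Mir155, expressed in activated lymphoid and myeloid cells, had 2 and 6 reads in MEL cells with 0 in the input, 3.35-fold, and 2 and 4 in ES-EP, 2.24-fold, neither past the test. Mir146, which encodes the inflammatory regulator miR-146a, had 2 and 4 reads in MEL cells, next to 4 and 5 in ES-EP, 1.56-fold and 2.52-fold. The erythroid pair Mir144 and Mir451 shared 8 and 7 reads in MEL cells, next to 3 and 11 in ES-EP, 1.95-fold and 2.24-fold for Mir144. Mir142, a pan-hematopoietic miRNA, came closest in ES-EP. Its region had 13 and 8 reads there with 2 in the inputs, 2.73-fold (1.69 to 4.18, adjusted p = 0.020), with preparation B at 1.96-fold, just under the limit. In MEL cells it had 5 and 15 reads, 1.98-fold.

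**Figure D3:**
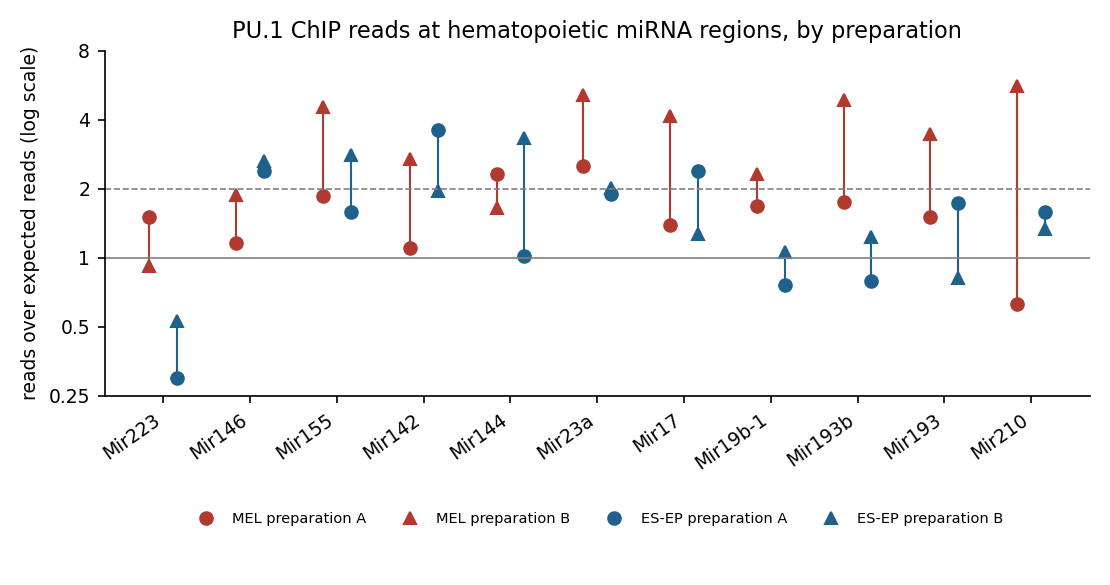
Reads over expected reads (y axis, log scale) at 11 hematopoietic miRNA regions (x axis), 1 point per chromatin preparation (circles A, triangles B), with lines at 1 and 2. At Mir23a both MEL preparations (red) lie above 2, while at Mir17, Mir193b and Mir210 preparation B lies above 4 and preparation A below 2.

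Sites further upstream were read by extending the region from 2 kb to 10 kb upstream of the hairpin. Then 8 of the 66 hematopoietic members were occupied in MEL cells (12.1%) and 3 in ES-EP (4.55%), next to 10.7% and 5.22% of all members and 31.4% and 14.5% of the whole table. Mir142 gained a site at -5000 bp (chr11:87565116-87565615, intergenic, 8677 bp from the nearest coding TSS). It held 16 and 31 reads in MEL cells with 2 in the input, 3.96-fold (2.91 to 5.27), and 72 and 36 in ES-EP with 12 in the inputs, 5.04-fold (4.13 to 6.08). Mir22, an erythroid and myeloid miRNA, had a site at -4800 bp with 18 and 24 reads in MEL cells, next to 42 and 22 in ES-EP, 4.72-fold and 7.16-fold. Mir21, an oncogenic miRNA in Vmp1, had a site at -3050 bp with 8 and 14 reads in MEL cells, next to 36 and 27 in ES-EP, 4.50-fold and 7.05-fold, which is 214 bp from an annotated Vmp1 start.

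Mir223 had a site at -3050 bp that was called in MEL cells alone (chrX:93434856-93435355). It held 9 and 8 reads in MEL cells with 1 in the input, 3.82-fold (2.23 to 6.12, adjusted p = 0.0030), and 2 and 1 in ES-EP with 4 in the inputs, 0.420-fold (0.0866 to 1.23). The window was picked for its reads, the intervals cover counting error only, and the difference between the cell types was not tested in this wider region. Relative to the autosomal median, the ratio of MEL to ES-EP input reads on chromosome X was 1.56. Mir181c and Mir181d had a site in MEL cells at -4900 and -5100 bp, with 10 and 21 reads for Mir181c and 2 in the input, 4.36-fold. ES-EP had more reads there, 31 and 18, but 26 in the inputs, 1.05-fold. The sites of Mir16-2 and Mir210 in this wider region lay within 2 kb of the coding TSSs of Smc4 and Phrf1. The Mir23a cluster was not among the 8, since its window with the most reads then lay elsewhere. These genes were named because they passed in the wider region, after their values were seen.

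**Figure D4:**
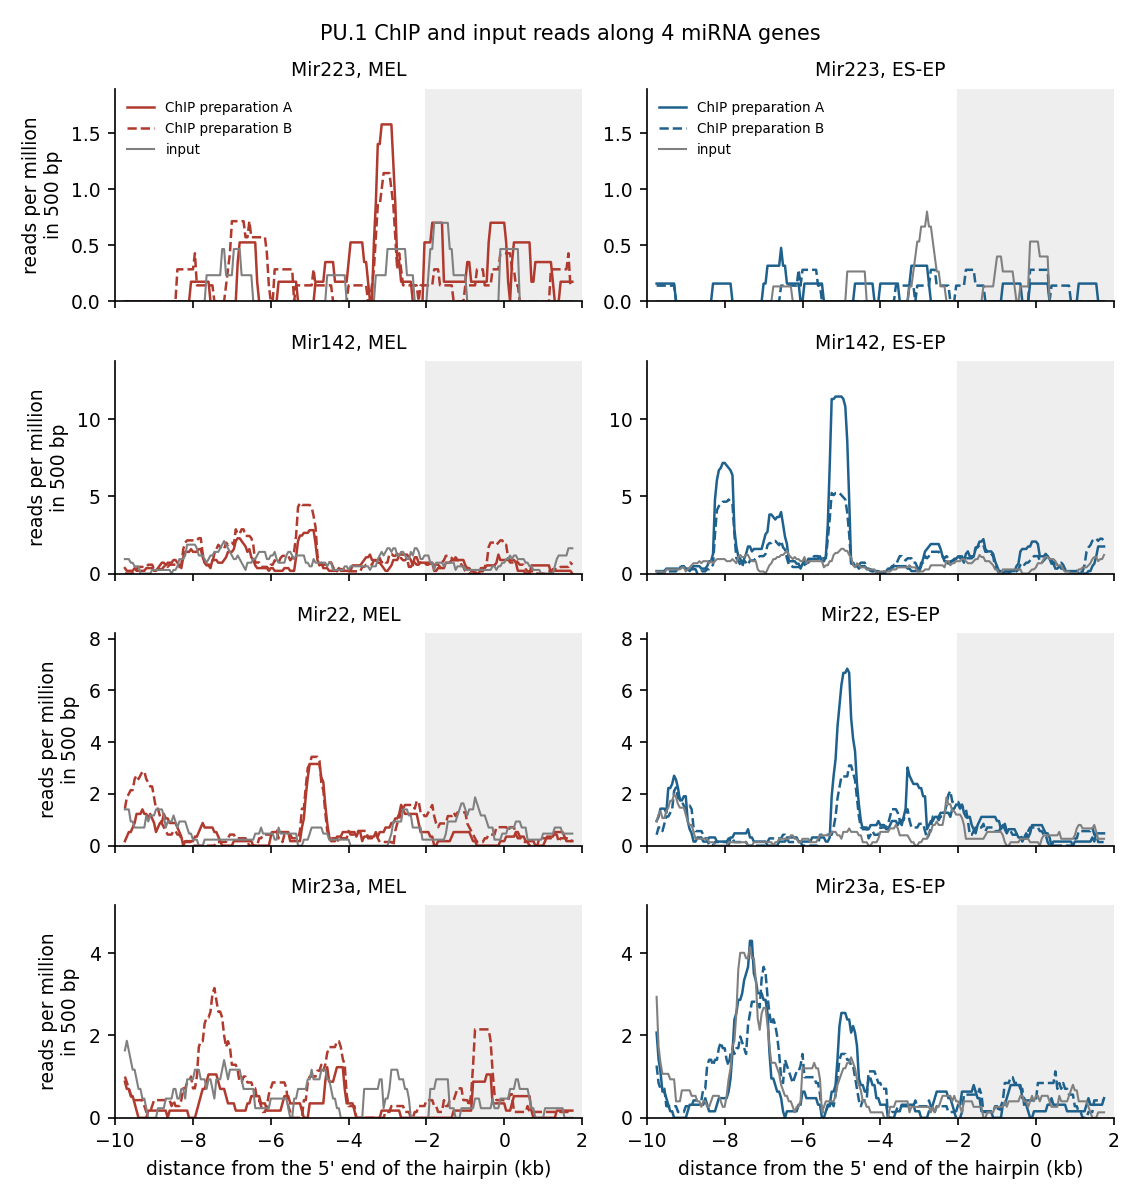
Depth-scaled reads (y axis, CPM in 500 bp windows, that is reads scaled to the library total) by distance from the hairpin's 5′ end (x axis, kb, negative values upstream) for Mir223, Mir142, Mir22 and Mir23a, in MEL cells (left) and ES-EP (right), for ChIP preparations A (solid) and B (dashed) and the input (grey) with the 2 kb on each side of the hairpin shaded. Mir142 and Mir22 have maxima at -5000 and -4800 bp in both cell types and Mir223 at -3050 bp in MEL cells alone, all outside the shaded part.

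Host genes were read at their annotated 5′ ends alone, and these regions were occupied more often than the hairpin regions. Members lie over 2 kb from coding TSSs by the rule, so this sets promoters against other sites. Nearer starts of a host were not read as its TSS region, such as an Ank1 start 2462 bp from Mir486. The 455 members on the same strand as a coding gene have 308 different hosts, and the TSS region of 141 hosts (45.8%) was occupied in MEL cells, of 52 (16.9%) in ES-EP and of 35 (11.4%) in both. For all coding regions these shares were 29.4%, 11.9% and 7.41%. Among 148 members whose host was occupied in MEL cells, 8 were occupied themselves, against 7 of 307 members whose host was not. In ES-EP these numbers were 1 of 53 and 9 of 402. Among the hosts of hematopoietic miRNAs, Pank2 (Mir103-2) had 43 and 108 reads in MEL cells, next to 181 and 76 in ES-EP, 8.49-fold and 4.11-fold, and Pank3 (Mir103-1) had 6.21-fold and 4.08-fold. Ank1, the gene of the red cell membrane protein ankyrin and host of the erythroid Mir486, had 3 and 9 reads in MEL cells, next to 20 and 14 in ES-EP, 3.68-fold and 2.72-fold, while Mir486 itself was at 0.899-fold and 1.68-fold. Smc4, host of Mir15b and Mir16-2, was called occupied in MEL cells with 3 and 16 reads and 1 in the input, 6.41-fold. In ES-EP it had more reads, 29 and 28, but 25 in the inputs, 1.28-fold, and was not called. The MEL fold rests on its single input read: in the wider region of Mir15b a window over the same site, with the same reads and 2 in the input, was at 3.20-fold and was not called.

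Hematopoietic hairpins left out for a nearby coding TSS included occupied ones. Mir320, next to Polr3d, had 37 and 85 reads in MEL cells, next to 81 and 60 in ES-EP, 5.14-fold and 6.07-fold. Mir99b and Mir125a, by Ncrna00085, Mir10b in Hoxd3 and Mir196b in Hoxa9 were occupied in MEL cells with folds between 4.38 and 5.06. The Mir25, Mir93 and Mir106b hairpins in Mcm7 were not occupied, with 1.69-fold in MEL cells. The region at the annotated 5′ end of Mcm7 was occupied, with 19 and 53 reads in MEL cells, next to 37 and 23 in ES-EP, 9.71-fold and 5.60-fold.

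More genes of the miRNA pathway were called occupied in MEL cells than in ES-EP. The limma log2 of MEL over ES-EP was nevertheless negative at all listed pathway genes but Mov10 and Adar. At some of them it was small against its SE, such as Prkra (log2 -0.115, SE 0.647), and gives no order of the cell types there. Of 26 genes, 16 (61.5%) were occupied in MEL cells and 6 (23.1%) in ES-EP, all 6 also in MEL cells, against 29.4% and 11.9% of all coding regions. The 6 are Zcchc6 and Zcchc11, terminal uridylyl transferases that act on let-7 precursors, Xpo5, the nuclear exporter, Xrn2, a nuclear exonuclease, Ddx5, a helicase of the Drosha complex, and Tnrc6c, a partner of the Argonautes. Zcchc6 had the most reads, 61 and 117 in MEL cells, next to 171 and 98 in ES-EP, 8.58-fold and 3.76-fold. Xrn2 had 22 and 96 reads in MEL cells, next to 99 and 77 in ES-EP, 6.63-fold and 6.57-fold. Xpo5 had 26 and 60 and 112 and 60, 9.67-fold and 3.85-fold. Ddx5 had the highest fold in MEL cells, 14.2, from 13 and 63 reads. Zcchc11 and Tnrc6c had 4.72-fold and 5.11-fold in MEL cells and 4.34-fold and 3.21-fold in ES-EP. The Poisson test alone was passed by 3 further pathway genes in MEL cells and by 9 in ES-EP. Drosha was among them in both, with 2.36-fold and 2.60-fold, and stayed under 2-fold in MEL preparation A and ES-EP preparation B. Drosha, Dicer1, Dgcr8 and Lin28b were named for their roles, with their values known. Dicer1 did not pass, at 1.72-fold and 0.985-fold. Dgcr8 was called in MEL cells alone, with 20 and 39 reads and 4 in the input, 4.98-fold. In ES-EP it had 70 and 36 reads and 49 in the inputs, 1.21-fold.

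No member differed between the cell types at the threshold. The reads per preparation were compared with limma voom over 2 MEL and 2 ES-EP preparations, and of all 23944 regions 16 (0.0668%) had more reads in MEL cells while 20 (0.0835%) had more in ES-EP, among them 0 members. At an unadjusted p below 0.05 limma gave 72 members higher in MEL cells and 32 higher in ES-EP (792 and 1035 of all regions), and limma on log2 of CPM plus 0.5 gave 88 and 49 with 0 past the adjusted threshold. In data simulated from the mean reads, with a preset spread, 200 regions with at least 20 reads were changed. This fit recovered 20% of 8-fold and 2% of 4-fold differences there, so that even 8-fold differences were mostly not detectable. The median member held 5 reads in each cell type, and recovery at so few reads was not simulated. The lowest adjusted p was that of AC159290.1, with 6 and 13 reads in MEL cells and 0 in both ES-EP preparations (log2 4.31, SE 1.10, adjusted p = 0.0526). Mir203 was the nearest hairpin with a miRNA name (log2 2.43, SE 0.74, adjusted p = 0.209). Both of its MEL preparations were above both ES-EP preparations, and 52 of the 76 members occupied in either cell type had no such overlap. With median-ratio scaling, which moves the median log2 over all regions from -0.26 to 0.05, 14 members were higher in MEL cells, against 0 in ES-EP. Of the miRNA pathway genes only Lin28b, a repressor of let-7 processing, passed, with 3 and 9 reads in MEL cells, next to 96 and 36 in ES-EP (log2 -3.28, SE 0.74, adjusted p = 0.0190). This call was lost in 6 alternatives, in which 0 regions of the whole table passed: the replicate block, log2 of CPM plus 0.5, and each preparation left out in turn. By the occupancy rule Lin28b was called occupied in MEL cells alone (4.05-fold, against 2.55-fold in ES-EP). The input at Lin28b differed in the same direction, with 1 read in MEL cells compared with 29 in ES-EP, and its part in the difference was not tested.

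The word GAGGAAGT, which contains the purine-rich Ets core, was counted on both strands of each best window. It was present in 6 of the 10 windows occupied in both cell types, of which Mir1965 and AC164075.1 overlap, in 13 of 59 occupied in MEL cells (22.0%) and in 8 of 27 in ES-EP (29.6%). It was in 74 of the 1302 windows of members not occupied (5.68%) and in 3.01% of the middle 500 bp of all tiles, and in 9.79% of the windows of occupied coding regions. The shorter word GAGGAA, which lies inside it, was in 64.5% of windows occupied in either cell type, 41.3% of those not occupied and 39.2% of tiles. For the word AGATAA, bound by erythroid GATA factors, these shares were 17.1%, 23.6% and 30.5%, with 7 of 59 windows occupied in MEL cells (11.9%) but 8 of 27 in ES-EP (29.6%), and it can overlap the Ets words at its ends. The median GC content of these windows was 51.2%, 43.9% and 41.4%, and the part of GC content in the shares was not tested.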

How the data were processed

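The deposited files list 1 uniquely aligned read per line (chromosome, start, strand, sequence), made by the authors with ELAND (version not given in the sources used here) on mm9 with up to 2 mismatches. They hold positions and no measured value, so that all read counts were made here from the deposited positions. Read 5′ ends were moved by 70 bp (MEL) or 65 bp (ES-EP), and libraries of a preparation were summed. In each region, 71 windows of 500 bp in steps of 50 bp were compared and the window with the most depth-scaled ChIP reads over all preparations was kept. Expected reads came from the depth-scaled input, as the highest of its rates over the window itself, over 1, 5 or 10 kb, or genome-wide. The Poisson p was multiplied by 71 and adjusted after Benjamini and Hochberg over all 23944 miRNA and protein-coding regions. Cell types were compared with limma 3.58.1 (voom, two-sided, total reads as depth, adjusted over the same table). Versions were R 4.3.3, Python 3.11.15 and scipy 1.17.1. Both steps were tested on simulated data, in which the occupancy rule found 100% of 10-fold and 80% of 5-fold sites in MEL cells among 23944 regions.

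The authors' cisGenome and spp peaks and their expression arrays were not used here. Named are hematopoietic list members that were occupied, 6 hairpins whatever their values, up to 10 other loci occupied in both cell types, members past limma, and up to 6 pathway genes occupied in both. Other genes in the text were chosen after their values were seen. The members and lists were chosen with earlier results of these data known. A and B name preparations within a cell type and are not stated to be shared between them, so that no replicate block was used in the main fit. The sequence at 1 locus is not reported here. Alternatives and their effects are in the closing section.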

Additional observations from a re-analysis of the deposited data

Results flagged for a closer look

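Library outliers were looked for with Dixon's test among the 4 libraries of a cell type, at 38 of the members named in the text, where a cell type had at least 10 reads. Of 60 sets tested 4 were flagged, and chance flags about 1 in 20. In MEL cells library A1 stood at 1.46 CPM (reads scaled to the library total) at mmu-mir-1194 (the others at 0.823, 0.731 and 0.706). Its reads there were 3, against 3, 2 and 3 in A2, B1 and B2, and A1 is the library with the fewest reads. Library A2 of MEL cells stood at 2.47 CPM at Mir370 (the others at 0.487, 0.731 and 0.706). Library B2 of MEL cells stood at 2.35 CPM at AC159290.1 (the others at 0.973, 1.10 and 1.10). In ES-EP library A2 stood at 15.8 CPM at mmu-mir-2134-1 (the others at 1.28, 1.33 and 1.03).

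At 7 of these 38 members both preparations of 1 cell type had more reads than expected and both of the other had fewer. Each of the 7 was called occupied in 1 cell type, and that call requires more reads than expected in both its preparations. How many of all members show this pattern was not counted. The log2 ratio of the folds, MEL over ES-EP, was 2.73 at mmu-mir-1194, 3.53 at Mir218-2, 4.41 at Mir370, 2.46 at mmu-mir-689-2 and 2.49 at Mir483, and -2.95 at Mir466f-4. At AC159290.1, with 0 reads in ES-EP, it was at least 2.74 against a floor of 3 reads over both preparations. This difference of folds was not tested, and the limma test on depth-scaled reads was passed by 0 of the 7. At mmu-mir-689-2 the ES-EP inputs hold 163 reads and the MEL input 9.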

How the results depend on the processing

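The counts of occupied members (59 in MEL cells, 27 in ES-EP, 10 in both) rest on few reads and move with the settings. The number with 5 kb on each side was 120, 63 and 31, with 10 kb upstream 148, 72 and 44, and with 1 kb on each side 16 in ES-EP and 6 in both. With input in the window and the genome mean only it was 102, 45 and 18, and with the exact binomial test 11, 5 and 4. With a window of 1000 bp 39 were occupied in MEL cells, and with 200 bp 47 in ES-EP. With an adjusted p below 0.001 the ES-EP number was 15, with input 1 alone 43, and with no condition on single preparations 18 were occupied in both. With the first libraries only, the numbers were 28, 8 and 5. With the window chosen on preparations A and B tested, 108 were occupied in MEL cells, and with the reverse 55 in ES-EP. Leaving out 1 preparation gave 28 to 62 in MEL cells, 10 to 28 in ES-EP and 6 to 12 in both. Among alternatives chosen after seeing the data, only regions named Mir or mmu-mir gave 20, 7 and 3, and the other settings stayed within 1.5 times.

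Differences between cell types gave 0 members in each direction, and also 0 with the replicate block on the letters A and B, where 0 regions of the whole table passed. Fits without 1 preparation leave 1 in a group, whose spread then comes from the other cell type alone, and cannot decide the question. Crossing the letters (MEL A with ES-EP B), chosen after seeing the data since same-letter deviations correlate at -0.216, gave 21 members higher in MEL and 7 in ES-EP (280 and 1785 of all regions). Each library as a sample gave 16 and 2, which treats 2 libraries of a preparation as independent, and median-ratio scaling gave 14 and 0. Regions with at least 20 reads, at most 1 read per position and strand, and a window of 1000 bp each gave 1 higher in MEL cells.

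Called folds fell below 1 where the window changed. With 1 kb on each side this held for AC164075.1 (0.405), Mir1965 (0.394), Mir709 (0.450), Mir140 (0.281) and AL671117.1 (0.506) in MEL cells and for Mir1965 (0.840) and AL671117.1 (0.320) in ES-EP, whose sites lie outside that region. With the window chosen on preparations B and reads of A it held for Mir370 (0) and Mir137 (0.751) in MEL cells and AC139317.1 (0.953) and Mir124a-3 (0.567) in ES-EP, for Mir124a-3 also with 1000 bp (0.903), and for Mir370 without MEL replicate A (0.306, against 9.32 without MEL replicate B). Of the other folds of single members under single settings, 1492 kept their direction and side of the threshold, 178 lost the call and 19 gained it. The 1492 include cell types in which a member was not called to begin with, so they are not a count of calls kept. The calls of Mir218-2 and Mir483 in MEL cells and of Mir466f-4 and AC120002.1 in ES-EP were each kept in 14 of 23 settings.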
